A study of Mus musculus with 6 samples.

Results

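The 10 core circadian clock genes Arntl, Clock, Per1, Per2, Per3, Cry1, Cry2, Nr1d1, Nr1d2 and Dbp were read, by gene symbol, in the RNA sequencing counts of mouse quadriceps, a muscle of the thigh. Each symbol matched 1 Ensembl ID, so that 10 of the 37477 IDs in the table were described, and all 10 were among the 13848 genes with enough counts to be tested. The mice were 20 weeks old and of strain C57BL/6. The KO group held 3 libraries from MERKO mice, labelled as lacking estrogen receptor alpha in muscle only, and the WT group held 3 libraries from wild-type mice. The sources used here do not give the promoter or Cre line behind the deletion, the sex, the feeding state or the time of day at which muscle was taken. Nothing in the labels ties a library to a separate animal; p-values therefore measure only how far these libraries spread, and that spread may be technical.

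The clock of mammalian cells is a feedback loop of transcription. BMAL1, the protein of Arntl, pairs with CLOCK and binds E-boxes in the promoters of the Per, Cry, Nr1d and Dbp genes; PER and CRY proteins then block that pair, and the REV-ERB receptors encoded by Nr1d1 and Nr1d2 repress Arntl through ROR elements. DBP, the output factor, binds D-boxes. The transcripts therefore go up and down over the day, in muscle as in other tissues, and in mouse tissues Arntl runs in a phase opposite to that of Nr1d1 and Dbp.

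Promoter sequence from RefSeq (build GRCm38.p6, the assembly of mm10) was found for 9 of the 10 genes. The 13 windows reached from 250 bases before a transcription start to 50 bases from it. Per2 had no window and was not searched. Both strands were searched for the E-box CACGTG, the D-box as TTATGTAA or TTACGTAA, a ROR element as TAGGTCA and the palindromic estrogen response element. The E-box stood in 1 window each of Per1 and Cry1, the D-box in that of Per3, the ROR element in 1 of Arntl, and the estrogen response element in none of the 13 windows. Of all 32851 windows in the RefSeq table, 7.15% held this E-box, 1.06% this D-box, 2.61% this ROR element and 0.0700% this estrogen response element. A set of 3 windows is shown because it holds 1 element of each arm of the loop in genes whose values are described next, with the element in capitals and each sequence on its gene's own strand. That of Arntl is chr7:113207261-113207560 on the plus strand, with the ROR element beginning 30 bases after the start site; that of Per3 is chr4:151044616-151044915 on the minus strand, with D-boxes beginning 205 and 158 bases before the start site; that of Per1 is chr11:69098699-69098998 on the plus strand, with the E-box beginning 166 bases before the start site.
Arntl: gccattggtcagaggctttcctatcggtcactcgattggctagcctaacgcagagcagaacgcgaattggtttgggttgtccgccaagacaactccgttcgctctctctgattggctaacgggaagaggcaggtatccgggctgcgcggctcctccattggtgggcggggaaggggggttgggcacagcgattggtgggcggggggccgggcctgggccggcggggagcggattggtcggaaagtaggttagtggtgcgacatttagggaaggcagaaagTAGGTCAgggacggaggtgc
Per3: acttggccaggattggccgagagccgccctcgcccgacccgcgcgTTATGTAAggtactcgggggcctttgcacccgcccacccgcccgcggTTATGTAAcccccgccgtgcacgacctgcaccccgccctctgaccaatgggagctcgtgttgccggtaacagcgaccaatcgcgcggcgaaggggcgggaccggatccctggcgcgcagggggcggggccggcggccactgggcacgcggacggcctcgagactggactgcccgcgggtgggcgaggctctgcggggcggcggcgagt
Per1: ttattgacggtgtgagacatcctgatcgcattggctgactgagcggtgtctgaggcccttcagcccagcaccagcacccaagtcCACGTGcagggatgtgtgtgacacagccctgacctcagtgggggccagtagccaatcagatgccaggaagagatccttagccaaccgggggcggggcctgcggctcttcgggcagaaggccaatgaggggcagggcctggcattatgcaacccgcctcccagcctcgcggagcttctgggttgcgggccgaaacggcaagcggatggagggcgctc
These matches describe letters and not bound sites.

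The libraries held 7388365 to 8560244 counts. Esr1, the deleted gene, was at 2.60, 1.93 and 1.98 CPM (counts per 1000000 library counts, scaled between libraries) in KO replicates 1, 2 and 3. In WT replicates 1, 2 and 3 it was at 6.70, 5.61 and 5.58 CPM. The groups did not overlap, and edgeR's quasi-likelihood test gave an adjusted p of 0.145 (1.04e-05 unadjusted). The authors' deposited values for Esr1 were a log2 fold change of -1.43 and an adjusted p-value of 0.000152. KO replicate 1 stood apart, with 9.53% of its counts on the mitochondrial genome against 6.14% to 7.46% in the other 5 libraries. Defining genes of muscle fibres, such as Acta1 and Ckm, were present in all libraries: 9 listed markers summed to 68822 to 73505 CPM in KO and 65506 to 72554 CPM in WT. Summed markers of adipocytes, endothelium, macrophages, red blood cells, fibroblasts, Schwann cells and satellite cells overlapped between the genotypes. In these bulk samples, fewer cells of a type and less RNA per cell cannot be told apart.

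No clock gene passed the test for a difference between the genotypes. Of the 10 genes, 3 had a higher and 7 a lower fitted level in KO, with log2 differences from -0.48 for Arntl to 0.26 for Dbp and a median of -0.06, beside -0.0024 over all genes tested. In edgeR's quasi-likelihood test 0 of the 10 passed an adjusted p of 0.05, and 0 passed in DESeq2 or limma voom; the share of all 13848 genes that passed was 0%. At an unadjusted p under 0.05 there was 1 clock gene, Arntl, where 4.26% of all genes stood, 1.99% higher and 2.27% lower in KO. The groups overlapped for all 10 genes, while they did not overlap for 10.4% of all genes, 4.96% having every KO value above and 5.45% every KO value below those of WT. The 95% intervals of all 10 log2 differences lay within a 2-fold change either way, with the narrowest for Nr1d2, from -0.10 to 0.21, and the widest for Per3, from -0.61 to 0.47.

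**Figure D1:**
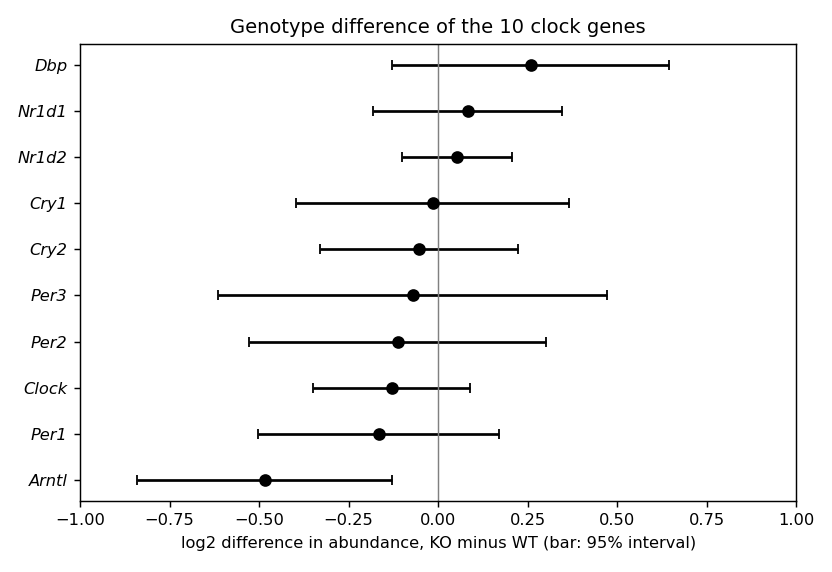
Points are the log2 differences in abundance of the 10 clock genes, KO minus WT, ordered from Dbp at the top to Arntl at the bottom, and bars are 95% intervals of edgeR's quasi-likelihood fit (3 libraries per group). Of the 10 intervals 9 cross 0, that of Arntl runs from -0.84 to -0.13, and no gene passed after adjustment over all genes.

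The activator arm held the largest of the 10 differences. Arntl (chromosome 7, 113207465 to 113314126, plus strand, mm10), which encodes BMAL1, was at 9.70, 13.9 and 13.5 CPM in KO replicates 1, 2 and 3, against 13.5, 19.7 and 18.6 CPM in WT replicates 1, 2 and 3. WT replicates 2 and 3 were the highest libraries and KO replicate 1 the lowest, and WT replicate 1 lay between KO replicates 2 and 3. The mean was 12.4 ± 2.31 CPM in KO and 17.3 ± 3.30 CPM in WT (SD, n = 3 each), 0.715 times the WT level. The log2 difference of -0.48 ± 0.17 (SE) had an adjusted p of 0.989 (0.0109 unadjusted) in edgeR's quasi-likelihood test, and 1.82% of all genes tested had a log2 difference as low or lower. Without KO replicate 1 the log2 difference of Arntl was -0.34, with an adjusted p of 0.859 (0.0530 unadjusted) in the same edgeR test; over all alternatives its adjusted p ran from 0.281 to above 0.999. In the authors' deposited table Arntl had a log2 fold change of -0.47, a p-value of 0.00866 and an adjusted p-value of 1. Exons of the antisense gene Gm45355 cover 0.44% of the exonic bases of Arntl.

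Clock (chromosome 5, 76209868 to 76304792, minus strand), the partner of BMAL1, was at 44.4, 53.2 and 41.1 CPM in KO replicates 1, 2 and 3 and at 48.4, 55.7 and 47.8 CPM in WT replicates 1, 2 and 3. The replicate 2 libraries of both genotypes were the highest, and the groups overlapped. The log2 difference was -0.13 ± 0.10 (SE), with an adjusted p of 0.993 in edgeR's quasi-likelihood test. Npas2, a paralog that can take the place of CLOCK, was too low to test: it had 2, 3 and 3 counts in KO and 4, 3 and 5 counts in WT replicates 1, 2 and 3.

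**Figure D2:**
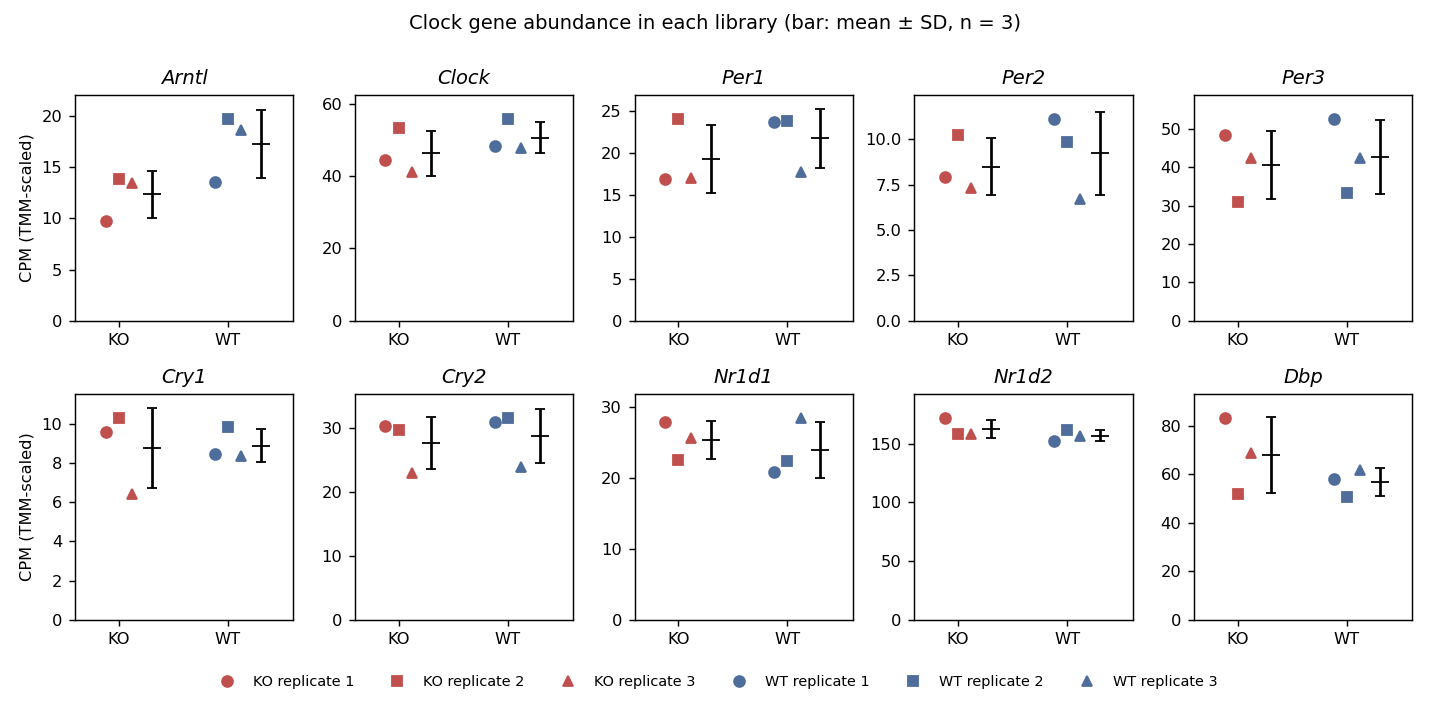
Each panel plots the CPM of 1 clock gene in each library (vertical axis from 0), KO left and WT right, with 1 marker shape per replicate number and a bar for the mean ± SD of 3 libraries. The groups overlap in every panel; Arntl has the lowest KO values relative to WT, and in the Per3 panel libraries with the same number lie at similar levels in both genotypes.

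The period genes, whose proteins form the repressor complex with the cryptochromes, overlapped between genotypes and varied widely between libraries. Per1 (chromosome 11, 69095217 to 69109960, plus strand) was at 16.9, 24.0 and 17.1 CPM in KO replicates 1, 2 and 3 and at 23.7, 23.8 and 17.7 CPM in WT replicates 1, 2 and 3. Per2 (chromosome 1, 91415982 to 91459324, minus strand) was at 7.93, 10.3 and 7.31 CPM in KO and at 11.1, 9.85 and 6.72 CPM in WT replicates 1, 2 and 3. Both genes were thus high in the same 3 libraries, KO replicate 2 and WT replicates 1 and 2, and low in the other 3. Their log2 differences were -0.17 ± 0.16 and -0.11 ± 0.20 (SE), each with an adjusted p of 0.993 in edgeR's quasi-likelihood test. Per3 (chromosome 4, 151003652 to 151044665, minus strand), the third period gene, was at 48.4, 31.1 and 42.5 CPM in KO replicates 1, 2 and 3 and at 52.5, 33.2 and 42.3 CPM in WT replicates 1, 2 and 3. Its order of libraries was another one: the replicate 1 libraries were the highest and the replicate 2 libraries the lowest in both genotypes. The log2 difference of Per3 was -0.07 ± 0.22 (SE). There were 0.469, 0.427 and 0.428 counts of Per2 for each count of Per1 in KO replicates 1, 2 and 3. In WT replicates 1, 2 and 3 there were 0.469, 0.414 and 0.379. The ratio thus ran from 0.379 to 0.469, while the highest library exceeded the lowest by a factor of 1.42 for Per1 and 1.65 for Per2.

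The cryptochromes, the core repressors, overlapped between the genotypes. Cry1 (chromosome 10, 85131700 to 85185064, minus strand) was at 9.59, 10.3 and 6.44 CPM in KO and at 8.44, 9.85 and 8.37 CPM in WT replicates 1, 2 and 3, with a log2 difference of -0.016 ± 0.18 (SE) and an adjusted p of 0.999 in edgeR's quasi-likelihood test. Cry2 (chromosome 2, 92403646 to 92434043, minus strand) was at 30.3, 29.6 and 22.9 CPM in KO and at 30.8, 31.5 and 23.8 CPM in WT replicates 1, 2 and 3, with a log2 difference of -0.05 ± 0.13 (SE). The replicate 3 libraries were the lowest of each genotype for both cryptochromes, and KO replicate 3 was the lowest of all 6. For Cry1 in WT, however, replicates 3 and 1 were nearly equal, at 8.37 and 8.44 CPM. Exons of D930015M05Rik on the opposite strand cover 4.67% of the exonic bases of Cry2.

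Of the REV-ERB genes, Nr1d2 was the steadiest of all 10. Nr1d2 (chromosome 14, 18204054 to 18239127, minus strand) was at 172, 159 and 158 CPM in KO replicates 1, 2 and 3 and at 152, 162 and 156 CPM in WT replicates 1, 2 and 3. Its highest library exceeded its lowest by a factor of 1.13, the smallest such factor of the 10 genes, and its log2 difference was 0.05 ± 0.07 (SE). Nr1d1 (chromosome 11, 98767932 to 98775333, minus strand) was at 27.9, 22.5 and 25.6 CPM in KO and at 20.9, 22.4 and 28.4 CPM in WT replicates 1, 2 and 3, with a log2 difference of 0.08 ± 0.12 (SE) and an adjusted p of 0.993 in edgeR's quasi-likelihood test. The highest and the lowest library of Nr1d1 were both WT. The library kit does not mark strand, and exons of Thra, the thyroid hormone receptor gene on the opposite strand, cover 8.55% of the exonic bases of Nr1d1. Thra itself was at 30.3, 26.5 and 29.3 CPM in KO and at 28.4, 26.7 and 28.3 CPM in WT replicates 1, 2 and 3; its part in the Nr1d1 counts was not tested.

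Dbp (chromosome 7, 45705088 to 45710203, plus strand), the output factor, had the highest of the 10 log2 differences. It was at 83.0, 52.0 and 68.6 CPM in KO replicates 1, 2 and 3 and at 58.0, 50.5 and 61.6 CPM in WT replicates 1, 2 and 3. KO replicates 1 and 3 lay above all WT libraries and KO replicate 2 lay below 2 of the 3. The mean was 67.8 ± 15.5 CPM in KO and 56.7 ± 5.69 CPM in WT (SD, n = 3 each), and the log2 difference of 0.26 ± 0.17 (SE) had an adjusted p of 0.989 (0.160 unadjusted) in edgeR's quasi-likelihood test. This value leaned on single libraries: it was 0.09 without KO replicate 1 and 0.42 without KO replicate 2. In the same edgeR test the adjusted p was 0.962 (0.492 unadjusted) without KO replicate 1. Without KO replicate 2 it was 0.337 (0.00111 unadjusted). Exons of Sphk2, a sphingosine kinase gene on the opposite strand, cover 18.0% of the exonic bases of Dbp. Sphk2 was at 50.3, 40.4 and 42.2 CPM in KO and at 38.8, 37.7 and 43.5 CPM in WT replicates 1, 2 and 3, and its part in the Dbp counts was not tested.

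Levels of different genes were compared per kilobase of exonic sequence. Nr1d2 had the highest level in both genotypes, 30.1 ± 1.42 CPM per kb in KO and 29.0 ± 0.907 CPM per kb in WT (SD, n = 3 each). Dbp followed with 22.7 ± 5.18 CPM per kb in KO and 18.9 ± 1.90 CPM per kb in WT, and Nr1d1 with 8.24 ± 0.890 and 7.77 ± 1.29 CPM per kb in KO and WT. The ranges over 6 libraries of these 3 genes overlapped neither each other nor that of the next gene. Below them came Cry2, Per3, Per1, Clock, Cry1, Arntl and Per2, from a mean over 6 libraries of 4.45 CPM per kb for Cry2 to 1.51 CPM per kb for Per2, and the range of each of these 7 overlapped that of its neighbour in the order. Arntl stood at 1.64 ± 0.308 CPM per kb in KO and 2.30 ± 0.438 CPM per kb in WT, and Per2 at 1.45 ± 0.267 CPM per kb in KO and 1.58 ± 0.387 CPM per kb in WT (SD, n = 3 each).

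Most clock genes varied more between libraries of the same genotype than the median gene in their shared range of mean CPM. The SD of log2 CPM within a genotype, pooled over KO and WT, had a median of 0.264 over the 10 clock genes, from 0.0571 for Nr1d2 to 0.329 for Per3. Over the 7490 tested genes in the same range of mean CPM the median was 0.129 and the upper quartile 0.181. Of the 10 clock genes 9 lay above that median and 8 above that quartile, all but Clock and Nr1d2; leaving out 1 library at a time gave 7 to 9 above the quartile. Counting error alone gives a log2 SD of about 0.0795 for Per3 and 0.0648 for Dbp, so that their spreads of 0.329 and 0.261 were 4.14 and 4.04 times as wide; for Nr1d2, Cry1 and Per2 the spread was 1.41, 1.57 and 1.86 times the counting error. Cry1 and Per2 had the lowest mean CPM of the 10. Counting error alone gives each a log2 SD of about 0.173, near the quartile of 0.181. That quartile was taken over the whole range and not at each gene's own level. These counts describe the libraries and carry no test.

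**Figure D3:**
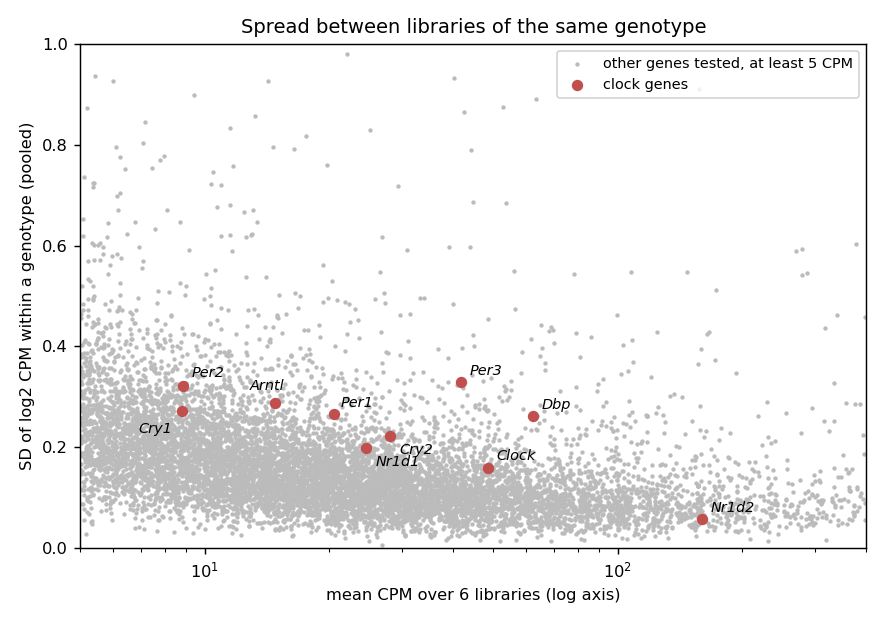
Each grey dot is a tested gene of at least 5 CPM, with its mean CPM over 6 libraries (horizontal, log axis) and the pooled SD of its log2 CPM within a genotype (vertical, cut at 1); red dots are the 10 clock genes. Per3 (0.329) and Dbp (0.261) lie above most genes of similar abundance. Nr1d2 (0.0571) lies below 0.0911, the lower quartile over genes in the clock genes' range of mean CPM.

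Whether libraries high in 1 arm of the loop were low in another was read across all 6 libraries. Dbp was counted 8.55, 3.74 and 5.08 times for each count of Arntl in KO replicates 1, 2 and 3, and 4.29, 2.56 and 3.31 times in WT replicates 1, 2 and 3; the groups overlapped. Nr1d1 was counted 2.88, 1.62 and 1.90 times for each count of Arntl in KO and 1.54, 1.14 and 1.52 times in WT replicates 1, 2 and 3. All KO values of this ratio lay above all WT values, the 1 case among the 5 ratios given here. Its denominator is Arntl, the clock gene with the lowest log2 difference, so the ratio is not separate from that difference. A ratio of chosen genes carries no test, and 10.4% of single genes had groups that did not overlap. For Per3 the ratio to Arntl was 4.99, 2.23 and 3.15 in KO and 3.88, 1.69 and 2.27 in WT replicates 1, 2 and 3, and Cry2 was counted 3.16, 2.88 and 3.56 times for each count of Cry1 in KO and 3.65, 3.19 and 2.85 times in WT replicates 1, 2 and 3.

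**Figure D4:**
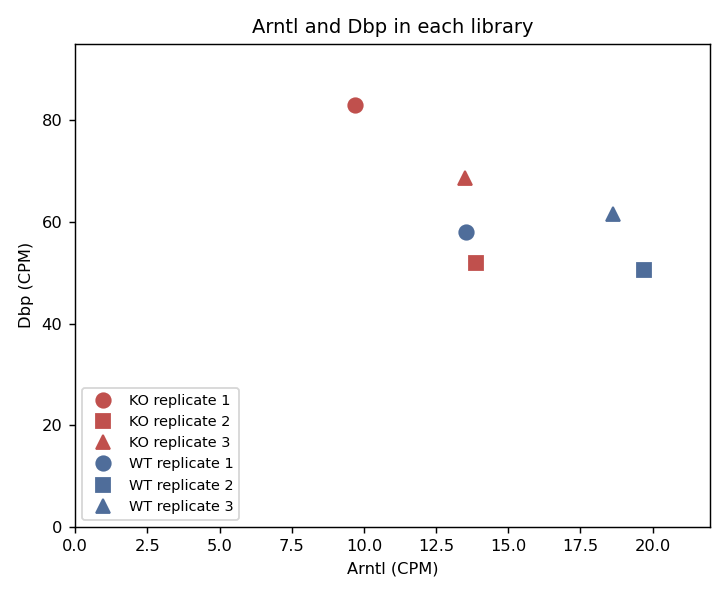
Each point is 1 library, with Arntl (horizontal) and Dbp (vertical) in CPM, red for KO and blue for WT, and 1 marker shape per replicate number. KO replicate 1 has the lowest Arntl (9.70 CPM) and the highest Dbp (83.0 CPM), and WT replicate 2 the highest Arntl (19.7 CPM) and the lowest Dbp (50.5 CPM).

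Arntl was correlated with each of the other 9 clock genes over the 6 libraries, on log2 CPM with exact two-sided permutation tests adjusted over the 9 relations. None of the 9 passed. Over 6 libraries the smallest possible exact permutation p was 0.00278, so a single relation among 9 could pass only near that floor. Not passing therefore says little about weaker relations. Dbp had the largest coefficient, a Pearson r of -0.74 (exact permutation p = 0.0847, adjusted p = 0.613) and a Spearman rho of -0.83 (exact permutation p = 0.0583, adjusted p = 0.394). Without KO replicate 1 and WT replicate 2, the libraries farthest from the Arntl median, the r of Arntl and Dbp was 0.11. These are also the libraries with the highest and the lowest Dbp. Leaving out the ends of the Arntl range can shrink r by itself, so this r cannot show whether the relation rests on them. With the genotype means removed, the r with Arntl ran from -0.84 for Per3 to 0.39 for Clock, over 6 libraries and with no test. It was -0.65 for Dbp and 0.005 for Nr1d1. Clock had a Pearson r of 0.57 with Arntl (exact permutation p = 0.239, adjusted p = 0.613) and a rho of 0.77 (exact permutation p = 0.103, adjusted p = 0.394). Per3 had a Pearson r of -0.49 (exact permutation p = 0.340, adjusted p = 0.613) and a rho of -0.66 (exact permutation p = 0.175, adjusted p = 0.394). The other 6 coefficients of Pearson ran from -0.49 for Nr1d2 to 0.36 for Per1. Among them Nr1d1 had a Pearson r of -0.19 (exact permutation p = 0.704, adjusted p = 0.989). Its rho was -0.20 (exact permutation p = 0.714, adjusted p = 0.903). Pairs without Arntl reached larger coefficients, which carry no test. Among all 45 pairs of clock genes r ran from -0.94 for Per2 and Nr1d1 to 0.92 for Per1 and Per2, and 20 were above 0.

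Genes whose pattern over the 6 libraries was most like that of Arntl or Dbp were taken as the extremes of 9749 genes with a symbol and at least 5 CPM, by Pearson r of log2 CPM; the points share genotype and library depth, and the values are a description. With Arntl the highest were Srbd1 (r = 0.997), Fam69b (0.985), Ddx18, an RNA helicase gene (0.982), Plekhg5 (0.976) and 0610010F05Rik (0.973), and the lowest were Dhx29, another RNA helicase gene (-0.983), Shisa5 (-0.981), Psmb10, a subunit of the immunoproteasome (-0.981), Zfp787 (-0.978) and Mdh2, the mitochondrial malate dehydrogenase (-0.977). With Dbp the highest were Plxnd1, a semaphorin receptor gene (0.996), Zbtb4 (0.993), R74862 (0.984), Trim37 (0.984) and Metrnl (0.983), and the lowest were Fbxo34 (-0.996), Ldlrad3 (-0.995), Tinagl1 (-0.993), Pygb, a glycogen phosphorylase (-0.989), and Fkbp5 (-0.986). No clock gene was among these 20 places. The clock gene closest to Dbp was Nr1d1, with an r of 0.72 at place 638 from the top, and the one farthest was Per1, with an r of -0.86 at place 9438.

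Fkbp5, a co-chaperone of steroid receptors that glucocorticoids induce, belongs to a list of 11 glucocorticoid and fasting responders set for these data, whose highest library exceeded the lowest by factors from 1.39 for Klf9 to 7.27 for Ddit4. Fkbp5 was at 11.2, 44.3 and 21.2 CPM in KO replicates 1, 2 and 3 and at 31.1, 39.8 and 29.0 CPM in WT replicates 1, 2 and 3. Tsc22d3, which encodes the glucocorticoid-induced leucine zipper, was at 69.1, 145 and 82.7 CPM in KO and at 93.6, 127 and 79.9 CPM in WT replicates 1, 2 and 3. KO replicate 2 and WT replicate 2 were the highest libraries for 8 of the 11 genes, and KO replicate 1 was the lowest for 9. These are the libraries at the low and the high end of Dbp, a pattern picked out after the values were seen, and the part of the responders in the clock genes' values was not tested. Markers of red blood cells, haemoglobin genes and Alas2 (5 of 7 listed were in the table), summed to 803, 1686 and 718 CPM in KO replicates 1, 2 and 3 and to 974, 1712 and 1543 CPM in WT replicates 1, 2 and 3, and so were also highest in the replicate 2 libraries. Between genotypes 0 of the 11 responders passed in edgeR's quasi-likelihood test, with 1 at an unadjusted p under 0.05, beside 4.26% of all genes, and 0 passed in DESeq2 or limma voom. That 1 was Klf9, a zinc-finger factor, with a log2 difference of -0.25; the differences of Pdk4, Angptl4 and Fkbp5 were -0.21, -0.41 and -0.38. In KO 3 responders were higher and 8 lower, and their median log2 difference was -0.21.

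**Figure D5:**
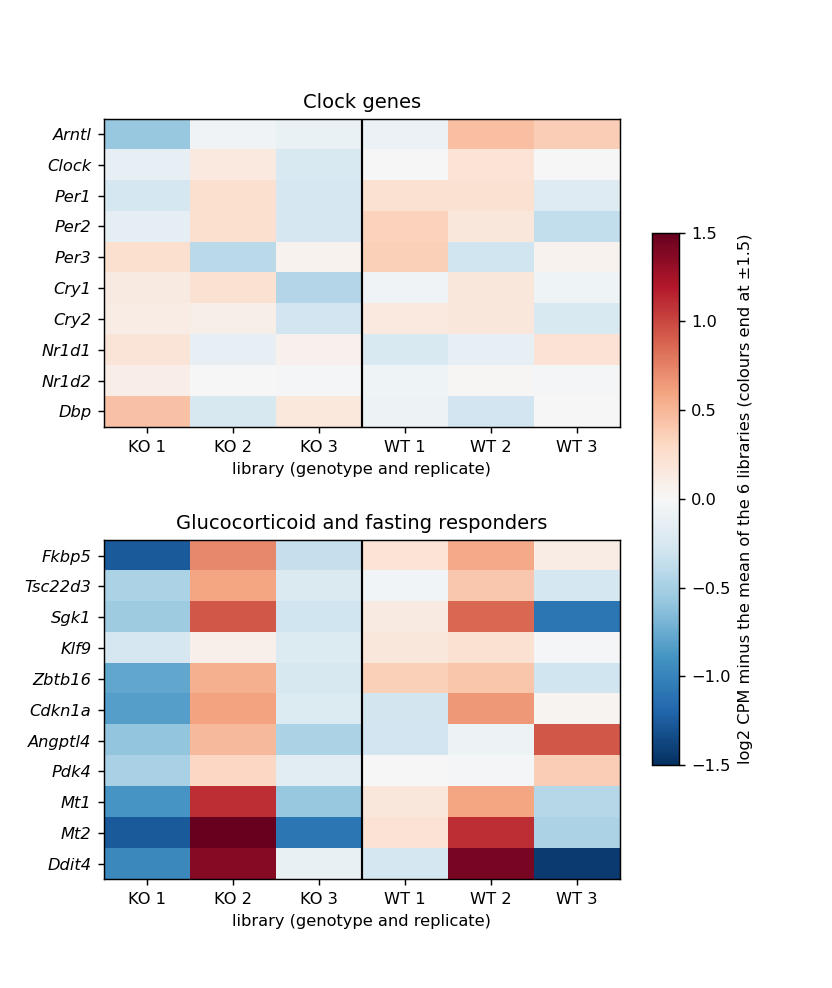
Colours give log2 CPM minus the mean of the 6 libraries for the 10 clock genes (upper panel) and 11 glucocorticoid and fasting responders (lower panel), with KO replicates left of the line and WT replicates right of it; colours end at ±1.5. Per1 and Per2 are higher in KO 2, WT 1 and WT 2, 8 of the 11 responders are highest in KO 2 and WT 2, and KO 1 has the lowest Arntl and the highest Dbp.

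Other genes of the clock were read from lists. In the secondary loop and its paralogs, 13 of 14 listed genes were in the table and 11 were tested. In KO 4 of them were higher and 7 lower, and their median log2 difference was -0.10. In edgeR's quasi-likelihood test 0 passed, and 0 passed in DESeq2 or limma voom; 1 had an unadjusted p under 0.05, beside 4.26% of all genes, and the groups did not overlap for 1, beside 10.4% of all genes. That gene was Rora, which encodes the activator that competes with REV-ERB on ROR elements: it was at 74.3, 78.1 and 68.8 CPM in KO and at 87.2, 88.3 and 82.7 CPM in WT replicates 1, 2 and 3, with an adjusted p of 0.989 (0.0122 unadjusted) in edgeR's quasi-likelihood test. Bhlhe40, which encodes the repressor DEC1, was at 70.1, 42.9 and 62.9 CPM in KO and at 44.3, 38.4 and 50.8 CPM in WT replicates 1, 2 and 3, with a log2 difference of 0.40 and an adjusted p of 0.989. Its paralog Bhlhe41 had a log2 difference of -0.05, and Timeless one of 0.34.

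The other D-box genes overlapped between the genotypes. Tef was at 184, 176 and 175 CPM in KO and at 200, 158 and 163 CPM in WT replicates 1, 2 and 3, and Hlf was at 3.39 ± 0.638 CPM in KO and 3.91 ± 1.16 CPM in WT (SD, n = 3 each). Nfil3, the repressor that competes for D-boxes, was at 3.55, 7.73 and 6.81 CPM in KO and at 8.30, 6.29 and 4.82 CPM in WT replicates 1, 2 and 3. Ciart (older symbol Gm129), a repressor of the BMAL1 and CLOCK pair, was at 8.17, 9.91 and 4.58 CPM in KO and at 12.3, 9.30 and 4.44 CPM in WT replicates 1, 2 and 3. Ciart was lowest in the replicate 3 libraries of both genotypes, as Cry2 was. Groups overlapped for all 4 of these genes.

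Kinases, phosphatases and ubiquitin ligases that act on clock proteins had 15 tested genes. In KO 3 of them were higher and 12 lower, and their median log2 difference was -0.09. In edgeR's quasi-likelihood test 0 passed and 1 had an unadjusted p under 0.05, beside 4.26% of all genes, and 0 passed in DESeq2 or limma voom; the groups did not overlap for 4, beside 10.4% of all genes. Huwe1, a ubiquitin ligase gene, was at 210, 213 and 212 CPM in KO and at 262, 229 and 234 CPM in WT replicates 1, 2 and 3, with an adjusted p of 0.989 (0.0191 unadjusted) in edgeR's quasi-likelihood test. The deubiquitinase gene Usp7 was at 88.7 ± 1.86 CPM in KO and 98.4 ± 3.25 CPM in WT (SD, n = 3 each). Csnk1a1, a casein kinase gene, had a log2 difference of -0.11. Genes known to be rhythmic in muscle had 13 tested members. In KO 4 of these were higher and 9 lower, the median log2 difference being -0.06. Of them 0 passed in edgeR's quasi-likelihood test, DESeq2 or limma voom, and 1 had an unadjusted p under 0.05, beside 4.26% of all genes. That 1 was Hk2, a hexokinase of muscle, at 549, 663 and 474 CPM in KO and at 694, 664 and 634 CPM in WT replicates 1, 2 and 3, which came to a log2 difference of -0.24 and an adjusted p of 0.989. Tcap, a cap protein of titin, had a log2 difference of 0.13, Pgam2 one of 0.12 and Fbxo32 one of -0.16. Usp2, a rhythmic deubiquitinase gene, was at 51.1, 76.1 and 53.9 CPM in KO and at 80.9, 69.3 and 57.0 CPM in WT replicates 1, 2 and 3, high in the same 3 libraries as Per1 and Per2. Noct, which encodes nocturnin, was at 6.27, 10.8 and 7.18 CPM in KO and at 6.16, 11.3 and 7.73 CPM in WT replicates 1, 2 and 3, highest in the replicate 2 libraries.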

How the data were processed

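RNA from 3 KO and 3 WT libraries labelled quadriceps was extracted with Trizol and turned into libraries by the unstranded TruSeq RNA protocol, per the labels' protocols. TopHat 1.3.3, edgeR and build mm10 are named in the submitters' processing notes, with no role given. Which counter and annotation were used, and how multi-mapped reads were treated, is not stated in these sources. The deposited table gives raw counts for each Ensembl ID and library, with a log2 fold change, a log2 mean CPM and p-values that the authors computed. Repeated IDs were merged (29 rows, identical counts).

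Genes were filtered with filterByExpr, scaled with TMM, whose factors were 0.968 to 1.037, and compared on genotype, two-sided, with edgeR 4.0.16 (robust quasi-likelihood F-test, R 4.3.3), with Benjamini-Hochberg adjustment over 13848 genes and a threshold of 0.05. The fit was tested on simulated data. SEs are the log2 difference over the square root of F. Log2 CPM used a prior count of 0.5. Exonic lengths, coordinates and overlaps came from GENCODE M21 (GRCm38, which mm10 names). The alternatives were 3 other scalings, 2 filters, DESeq2 1.42.0, limma 3.58.1 voom, a replicate block and leaving out each library. Members, lists and tests were chosen with earlier results of these data known. Named were all members, the 4 genes of smallest p in each list, 13 further list genes fixed by name, Esr1, genes whose exons overlap a member, and the 5 genes at each end of likeness to Arntl and to Dbp; some of these are not reported here. Intervals cover the spread between these libraries.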

Additional observations from a re-analysis of the deposited data

How the results depend on the processing

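Under all 14 alternatives 0 of the 10 clock genes and 0 of the genes of the 5 other lists passed an adjusted p of 0.05. Arntl, Clock and Per1 kept a lower and Nr1d2 and Dbp a higher fitted level in KO throughout, but leaving out 1 library moved Clock between -0.24 and -0.052, Per1 between -0.35 and -0.077 and Nr1d2 between 0.013 (without KO replicate 1) and 0.076. Leaving out 1 library turned the direction of the other 5: log2 differences ran from -0.30 to 0.043 for Per2, -0.22 to 0.10 for Per3, -0.14 to 0.16 for Cry1, -0.17 to 0.064 for Cry2 and -0.0063 to 0.23 for Nr1d1. For Arntl they ran from -0.63 to -0.34 and for Dbp from 0.09 to 0.42. Genes called over the whole table numbered 0 in the main setting, 19 with no filter beyond 1 read, 3 in DESeq2, 1 in limma voom, and 0 to 3 when 1 library was left out, the 3 arising without WT replicate 1; the cause was not tested. Esr1 passed with no filter (log2 difference -1.44, adjusted p = 0.000142). None of the 9 relations of Arntl passed under another scaling or a prior count of 2, where the same floor of the exact p applied.

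Same-numbered KO and WT libraries were checked for shared deviations from their group means over 10005 genes: the correlations were -0.0124, 0.226 and -0.0175 for replicates 1, 2 and 3, and not every library was closest to its own number, so the numbers were not taken as pairs. With the replicate block 0 clock genes and 0 genes in all passed; Arntl had a log2 difference of -0.48 (adjusted p = 0.908), Dbp 0.24 (adjusted p = 0.908) and Esr1 -1.45 (adjusted p = 0.182). The count of clock genes above the upper quartile of spread, 8, ran from 7 to 9 without 1 library, an alternative chosen after seeing the data. Ratios within a library do not depend on scaling, and levels not divided by length are the CPM of the report. Counts of 52 to 1451 per clock gene and library limit the precision of the less abundant ones, Cry1 and Per2.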

Other observations

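Responders to temperature and serum, which can set the phase of clocks in cultured cells, were read from a further list. Of 9 listed genes 8 were tested. In KO 2 were higher and 6 lower, and their median log2 difference was -0.04. Of the 8, 0 passed in edgeR's quasi-likelihood test, DESeq2 or limma voom; 1 had an unadjusted p under 0.05, beside 4.26% of all genes, and the groups did not overlap for 1, beside 10.4% of all genes. Both were Hsph1, a heat shock chaperone, at 24.6, 25.0 and 22.7 CPM in KO and at 16.9, 22.6 and 20.2 CPM in WT replicates 1, 2 and 3, with a log2 difference of 0.28 and an adjusted p of 0.989. The immediate early gene Fos had a log2 difference of -0.44, and the cold-inducible RNA-binding genes Cirbp and Rbm3 had -0.14 and -0.03.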
